A study of Homo sapiens with 4 samples.

Results

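The histone genes of K562 cells were examined, that is every gene in the deposited expression table whose name starts with HIST1, HIST2, HIST3 or HIST4 (clustered genes) or with H1F, H2AF, H3F3 or HILS (replacement variants). The rule found 62 of the 11213 genes in the table. Of these, 55 are clustered genes: 5 code for the linker histone H1, 16 for H2A, 16 for H2B, 9 for H3 and 9 for H4. By cluster, 45 carry the HIST1 prefix, 8 HIST2, 2 HIST3 and 0 HIST4. The other 7 are the replacement variants H2AFZ, H2AFV, H2AFX and H2AFY (H2A variants), H3F3A and H3F3B (which code for the same H3.3 protein) and H1FX (a linker variant). The rule uses gene names only, and it was set with earlier results of these data known.

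K562 is an established human chronic myelogenous leukaemia line that carries the BCR-ABL1 fusion, and the labels give bone marrow as its source. Cells were transduced with lentivirus carrying a control short hairpin RNA (shControl, labelled wild type in genotype) or a hairpin against PHF8 (shPHF8, labelled as a PHF8 knockdown). Both groups were treated in 5 µg/ml polybrene and selected with puromycin at 2 µg/ml after 72 h. Each group has 2 RNA-seq libraries made from total RNA, numbered 1 and 2. The labels do not say whether the numbers stand for separate cultures or for different hairpins, or whether polyadenylated RNA was selected. P-values therefore measure only the spread between these libraries, which may be technical.

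Chromatin packs DNA around octamers of H2A, H2B, H3 and H4, with H1 on the linker between them. The clustered genes are transcribed mostly in S phase, and their messages usually end in a conserved stem-loop, bound by the protein SLBP, in place of a poly(A) tail. Most replacement variants are made through the whole cell cycle from ordinary polyadenylated messages (H2AFX is known for messages with either end), and some clustered genes, HIST1H1C, HIST1H2BK and HIST2H2BE among them, are known to make polyadenylated transcripts as well. PHF8 is a demethylase that removes methyl groups from lysines of H3 and H4.

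Values are TPM, transcript abundances corrected for length and scaled to a sum of 1000000 in each library, so that the depth behind a value is unknown. PHF8 itself stood at 25.9 and 22.5 TPM in the shControl libraries and at 6.06 and 6.42 TPM in the shPHF8 libraries, so the groups did not overlap in the targeted gene. The difference was -1.80 ± 0.16 (SE) on the log2(TPM + 1) scale that is used for every fold change here, which understates the change of low genes. All 20 genes of a list of K562 and erythroid markers were in the table. Across the 10972 genes that averaged 1 TPM or more, limma with Benjamini-Hochberg adjustment called 0 genes higher (0%) and 0 lower (0%), and the smallest adjusted p was 0.0554. At an unadjusted p under 0.05 it counted 1086 genes higher in shPHF8 (9.90%) and 1328 lower (12.1%). Both shPHF8 libraries lay above both shControl libraries in 26.0% of genes and below them in 29.3%. These shares are the background for the counts that follow, and the median over all tested genes was -0.02.

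Clustered histone messages were more abundant in the PHF8 knockdown libraries, and the replacement variants stood close to their control level. The 55 clustered genes summed to 5682 and 5548 TPM in shControl libraries 1 and 2, and to 9259.9 and 9443 TPM in shPHF8 libraries 1 and 2, a ratio of means of 1.67. The 7 replacement variants summed to 2344 and 2287 TPM in shControl and to 2419 and 2442 TPM in shPHF8, a ratio of 1.05. In both sums the groups did not overlap, and the gap between groups was far wider for the clustered genes. Histone messages of both kinds took 0.803% and 0.784% of all TPM in shControl and 1.17% and 1.19% in shPHF8. No p is given for a sum, since 2 libraries against 2 cannot reach an exact two-sided permutation p below 0.333. In these bulk libraries, a change in the share of cells of a type and a change in RNA per cell cannot be told apart.

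Of the 55 clustered genes, 52 averaged 1 TPM or more and were tested. HIST1H2AA, HIST1H2BA and HIST1H3A, which lie close together in RefSeq's order of the HIST1 genes, fell under that filter, with at most 1.98 TPM in any library. At an unadjusted p under 0.05, 25 of the 52 were higher (48.1%, against 9.90% of all genes) and 0 were lower (against 12.1%). Both shPHF8 libraries lay above both shControl libraries in 34 genes (65.4%, against 26.0%) and below them in 1, HIST1H3J (against 29.3%). The log2 fold changes had a median of 0.47 and ran from -0.61 to 1.73, with 44 above 0 and 8 below. None of the 52 passed the adjustment over all genes. Of the 7 replacement variants, 1 was higher at an unadjusted p under 0.05 (H3F3A), 2 lay apart upward and 2 apart downward, and the median was 0.05 with a range from -0.09 to 0.26.

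**Figure D1:**
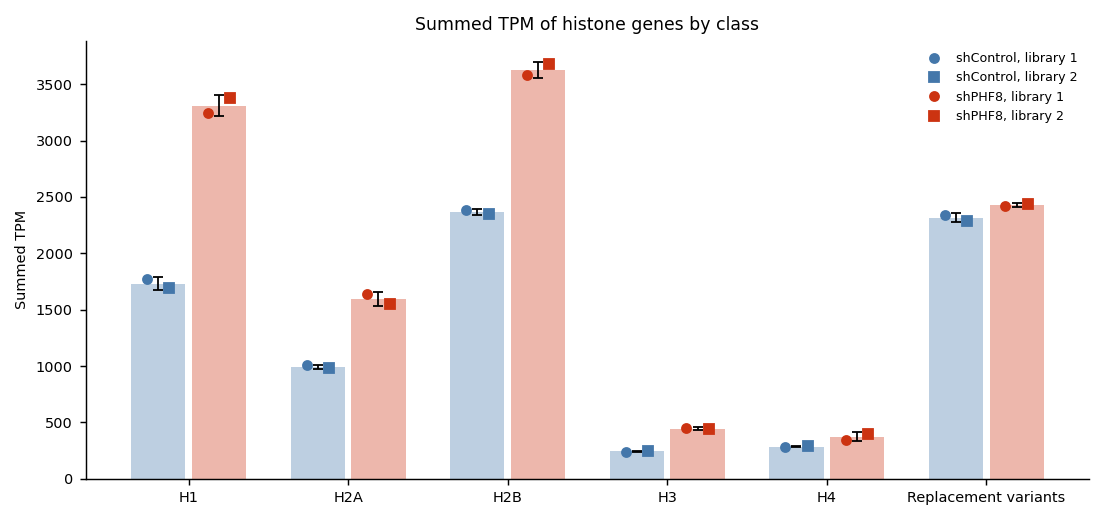
Summed TPM of the clustered genes by histone class, and of the replacement variants, in shControl (blue) and shPHF8 (red). Bars are means of 2 libraries, error bars are SD, and circles and squares are libraries 1 and 2. In each of the 6 sums both shPHF8 libraries lie above both shControl libraries, by a ratio of 1.91 for H1 and of 1.05 for the replacement variants.

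By class, the summed TPM of clustered H1 was 1772 and 1691 in shControl and 3245 and 3375 in shPHF8, a ratio of 1.91. H3 had the next highest ratio, 1.84, with 239 and 245 TPM in shControl and 452 and 437 TPM in shPHF8. H2A followed with 1005 and 979 against 1638 and 1549 TPM, a ratio of 1.61. The core histone class with the highest TPM was H2B, at 2385 and 2346 TPM in shControl and 3579 and 3680 TPM in shPHF8, a ratio of 1.53. H4 had the lowest ratio of the clustered classes, 1.32, from 280.1 and 287 to 346 and 400.5 TPM. Without shPHF8 library 2 the log2 ratio of the H4 sums was 0.29 in place of 0.40. The 4 libraries of every class fell into 2 groups that did not overlap, and no difference between classes was tested.

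The make-up of the histone TPM differed between the groups. Since it is unknown whether polyadenylated RNA was selected, these shares describe the libraries and may not hold for the cells. Replacement variants held 29.2% of all histone TPM in both shControl libraries, and 20.7% and 20.5% in the shPHF8 libraries. Among H3 messages, H3F3A and H3F3B together held 78.1% and 77.5% in shControl and 67.0% and 68.8% in shPHF8. Among H2A messages, the share of the 4 H2A variants was 56.1% and 55.8% in shControl and 43.8% and 44.8% in shPHF8. The groups did not overlap in any of these shares. Within the clustered genes the shares of the 2 dominant messages moved in opposite directions, although the TPM of both were higher in shPHF8. HIST1H1C held 30.8% and 30.0% of clustered TPM in shControl and 34.5% and 35.3% in shPHF8, while HIST1H2BK held 27.2% and 27.5% in shControl and 24.5% and 25.3% in shPHF8, without overlap in either. Together they held 57.9% and 57.5% in shControl and 59.0% and 60.6% in shPHF8.

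**Figure D2:**
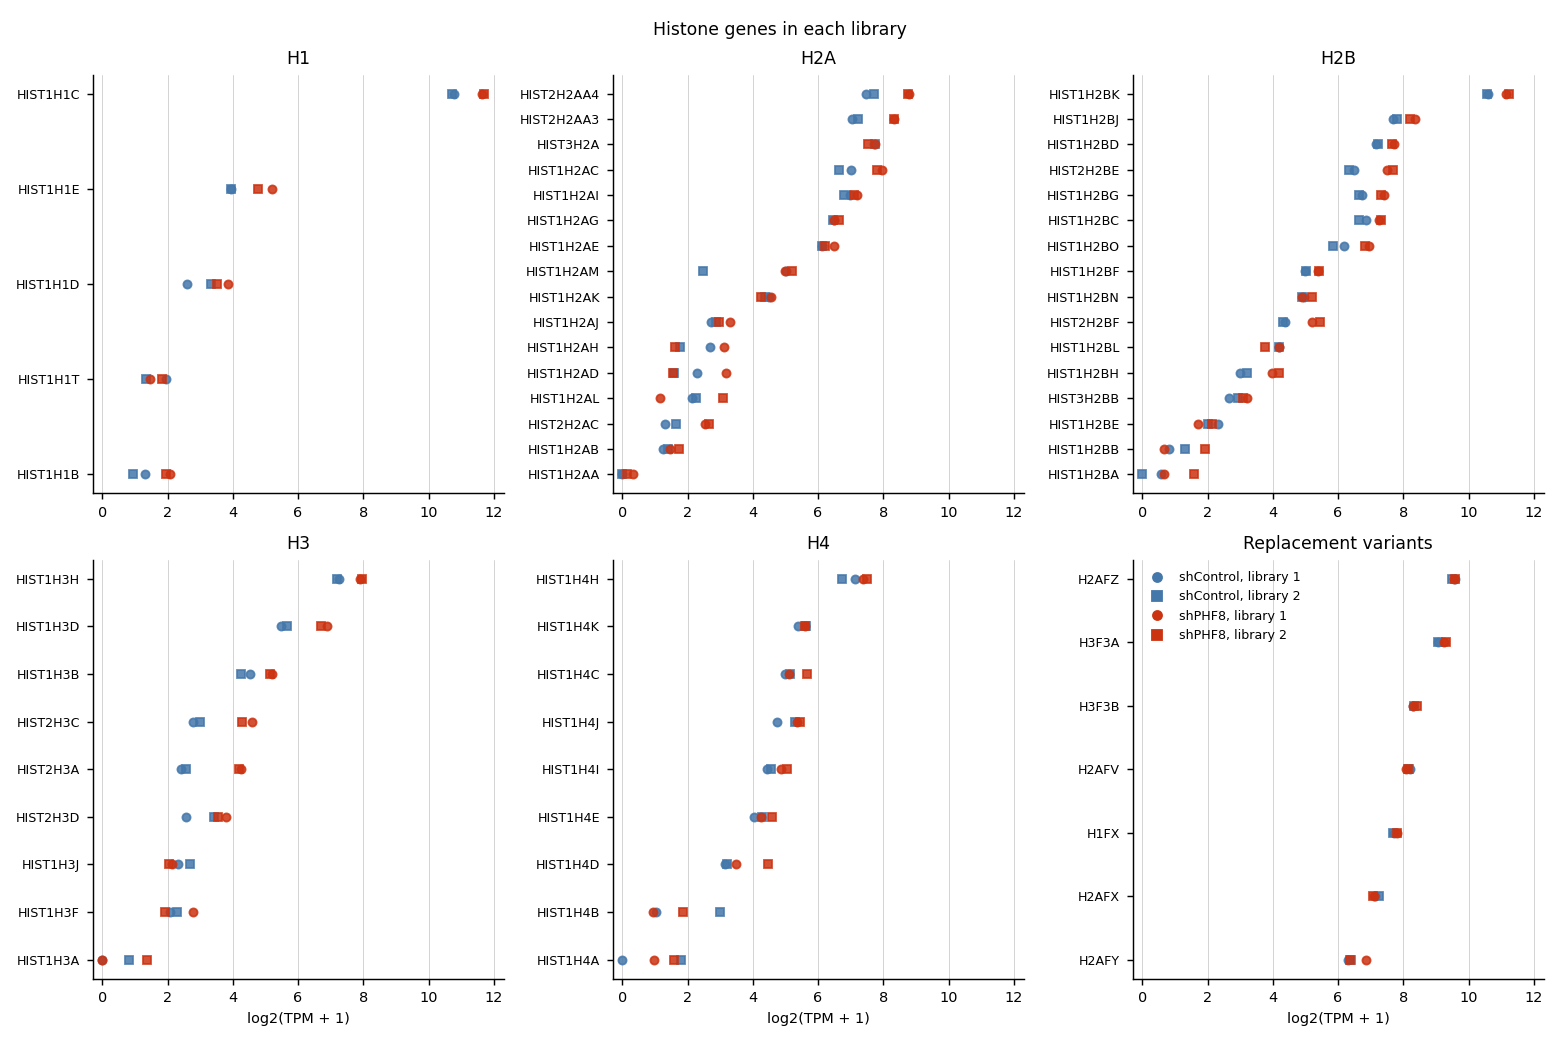
Level of each of the 62 histone genes in each library, as log2(TPM + 1), grouped by class and ordered by mean level. Blue points are shControl and red points shPHF8, with circles for library 1 and squares for library 2. HIST1H1C and HIST1H2BK stand above all other members, red points lie to the right of blue ones for most abundant clustered genes, and blue and red points lie close together for HIST3H2A and the replacement variants, with H2AFY in shPHF8 library 1 as the exception.

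Linker histones bind the DNA that enters and leaves the nucleosome. HIST1H1C, which codes for H1.2, was the most abundant histone message in these libraries, at 1749 and 1666 TPM in shControl and 3191 and 3333 TPM in shPHF8. It made up between 98.3% and 98.7% of clustered H1 TPM in every library, so the H1 sum is in effect this gene. Its log2 fold change was 0.93 ± 0.05 (SE), with an unadjusted p of 3.27e-05 and a limma Benjamini-Hochberg adjusted p of 0.0554, the smallest over all genes. HIST1H1E (H1.4) stood at 14.4 and 14.4 TPM in shControl and at 36.0 and 26.4 TPM in shPHF8, a log2 fold change of 1.05 ± 0.19 (adjusted p 0.103, limma). The 2 groups did not overlap for either gene.

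The other H1 genes were low. HIST1H1B (H1.5) stood at 1.48 and 0.926 TPM in shControl and at 3.18 and 2.84 TPM in shPHF8, with an unadjusted p of 0.0363 from limma that rose to 0.0692 with the replicate number as a block and to 0.0731 or more without shControl library 2 or either shPHF8 library. HIST1H1D (H1.3) stood at 5.02 and 8.97 TPM against 13.5 and 10.4 TPM, higher in both shPHF8 libraries with an adjusted p of 0.287 from limma. HIST1H1T, the testis linker histone, stood at 2.84 and 1.55 TPM against 1.74 and 2.55 TPM and overlapped. Of the 5 H1 genes, 3 had an unadjusted p under 0.05 and a higher level (against 9.90% of all genes), and the median log2 fold change was 0.88.

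The near-identical pair HIST2H2AA4 and HIST2H2AA3 led the class. HIST2H2AA4 stood at 177 and 207 TPM in shControl and at 443 and 429 TPM in shPHF8, a log2 fold change of 1.18 ± 0.10 (adjusted p 0.0572, limma). HIST2H2AA3 stood at 131 and 148 TPM against 323 and 322 TPM, a log2 fold change of 1.203 ± 0.09 (adjusted p 0.0554, limma). The groups lay far apart in both, but every 50-base stretch of the HIST2H2AA4 transcript also occurs in another gene record, so the split of reads within the pair is uncertain. Together the pair held 30.7% and 36.3% of clustered H2A TPM in shControl and 46.8% and 48.5% in shPHF8.

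HIST1H2AC, another abundant H2A gene, stood at 129 and 99.8 TPM in shControl and at 248 and 225 TPM in shPHF8, a log2 fold change of 1.05 ± 0.15 (adjusted p 0.0836, limma). The groups did not overlap. HIST3H2A was as abundant as these genes and did not differ beyond its spread, at 211 and 215 TPM in shControl and at 213 and 184 TPM in shPHF8, a log2 fold change of -0.10 with a 95% interval from -0.37 to 0.16. It was the only clustered gene with a mean of 100 TPM or more that did not have an unadjusted p under 0.05. HIST1H2AK stood at 21.4 and 19.8 TPM against 22.7 and 17.9 TPM, and HIST1H2AL at 3.36 and 3.78 TPM against 1.201 and 7.51 TPM, with overlapping groups in both.

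Of the 15 tested H2A genes, 5 had an unadjusted p under 0.05 and a higher level, 9 lay apart upward, and the median log2 fold change was 0.28. One of the 5 with an unadjusted p under 0.05 was a low gene, HIST2H2AC, at 1.45 and 2.15 TPM in shControl and 4.74 and 5.26 TPM in shPHF8, with separate groups and a log2 fold change of 1.11 ± 0.26. Without shPHF8 library 2 the count was 3 and the median 0.51. One gene, HIST1H2AM, had a library unlike the rest: it stood at 31.5 TPM in shControl library 1, at 4.49 TPM in shControl library 2, and at 31.0 and 36.1 TPM in shPHF8. Its log2 fold change was 1.37 ± 0.90 with the low control library included, and 86.3% of the 50-base stretches of its transcript are shared with the HIST1H3J gene record. It was singled out after its values were seen.

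H2B had the largest share of members below the unadjusted threshold of any class. Of 15 tested genes 10 were higher at an unadjusted p under 0.05 (66.7%, against 9.90% of all genes), and the median log2 fold change was 0.54. HIST1H2BK, the most abundant core histone gene, stood at 1543 and 1527 TPM in shControl and at 2271 and 2393 TPM in shPHF8, a log2 fold change of 0.60 ± 0.05 (adjusted p 0.0560, limma). The groups were far apart relative to the spread between libraries, although 74.1% of the 50-base stretches of its transcript occur in other gene records, 61.4% in H2BFS. HIST2H2BE was higher by more, from 89.0 and 79.2 TPM to 179 and 204 TPM, a log2 fold change of 1.18 ± 0.11 (adjusted p 0.0652, limma).

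HIST1H2BJ stood at 202 and 222 TPM in shControl and at 325 and 291 TPM in shPHF8, a log2 fold change of 0.54 ± 0.09. HIST1H2BD stood at 141 and 149.8 TPM against 210.2 and 199.6 TPM, a log2 fold change of 0.49 ± 0.08. HIST1H2BG stood at 106 and 97.9 TPM against 169 and 157 TPM, a log2 fold change of 0.67 ± 0.09. The libraries of the 2 groups were separate in all 3 genes, which code for H2B proteins that differ at few residues. HIST1H2BL and HIST1H2BE went the other way without separation, at 17.2 and 17.3 against 17.3 and 12.5 TPM for HIST1H2BL and at 3.94 and 2.99 against 2.27 and 3.40 TPM for HIST1H2BE.

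Clustered H3 genes code for the replication-coupled proteins H3.1 and H3.2. HIST1H3H, the most abundant of them, stood at 151 and 146 TPM in shControl and at 236 and 247 TPM in shPHF8, a log2 fold change of 0.70 ± 0.07 (adjusted p 0.0659, limma). HIST1H3D stood at 43.7 and 49.0 TPM against 117 and 102 TPM, a log2 fold change of 1.22 ± 0.12 (adjusted p 0.0659, limma). The groups did not overlap in either, and every 50-base stretch of the HIST1H3D transcript is also in the neighbouring record AL031777.3, so reads of those records cannot be told apart. HIST1H3B stood at 22.1 and 17.8 TPM against 35.4 and 34.4 TPM, a log2 fold change of 0.78 ± 0.15.

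The largest fold change of any tested histone gene belonged to HIST2H3A, at 4.36 and 4.89 TPM in shControl and 18.1 and 17.2 TPM in shPHF8, a log2 fold change of 1.73 ± 0.17 (adjusted p 0.0652, limma). Its copy HIST2H3C stood at 5.81 and 6.97 TPM against 23.2 and 18.6 TPM, a log2 fold change of 1.57 ± 0.20 (adjusted p 0.0730, limma). The transcripts of these 2 genes share all their 50-base stretches, so they are close to 1 measurement. HIST1H3J was the only clustered gene with both shPHF8 libraries below both shControl libraries, at 3.94 and 5.41 TPM against 3.41 and 3.12 TPM, with an unadjusted p of 0.179 from limma. Of the 8 tested H3 genes, 5 had an unadjusted p under 0.05 and a higher level (62.5%, against 9.90% of all genes), and the median log2 fold change was 0.74.

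H4 had the lowest share of members below the unadjusted threshold and the lowest ratio of sums among the clustered classes. HIST1H4H, the most abundant H4 gene, stood at 139 and 106 TPM in shControl and at 167 and 179 TPM in shPHF8, a log2 fold change of 0.51 ± 0.15 with an unadjusted p of 0.0279 from limma. HIST1H4I stood at 20.7 and 22.5 TPM against 27.9 and 31.9 TPM, a log2 fold change of 0.45 ± 0.14 with an unadjusted p of 0.0279. These were the 2 H4 genes of 9 below 0.05 (22.2%, against 9.90% of all genes higher), and the median log2 fold change was 0.36. Neither call was stable: the unadjusted p of HIST1H4I from limma lay between 0.0503 and 0.135 on leaving out any single library, and that of HIST1H4H was 0.0723 and 0.115 without shPHF8 library 1 and library 2. The count was 1 without shControl library 1 and 0 without shPHF8 library 2, where the median was 0.10.

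Other H4 genes overlapped or nearly so between the groups. HIST1H4K stood at 40.4 and 48.9 TPM against 47.8 and 47.9 TPM, and HIST1H4C, at 30.4 and 34.5 TPM against 33.4 and 50.1 TPM, overlapped as well. HIST1H4J stood at 25.5 and 38.6 TPM against 39.7 and 42.5 TPM, with both shPHF8 libraries just above the higher control. HIST1H4D stood at 7.85 and 8.16 TPM against 10.3 and 21.1 TPM, where shPHF8 library 2 carried most of the difference. HIST1H4B stood at 1.04 and 6.96 TPM against 0.916 and 2.62 TPM, a wider spread within the control group than between the groups. Every 50-base stretch of the HIST1H4K transcript is also in HIST1H4J, so these 2 genes are uncertain as separate measurements.

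**Figure D3:**
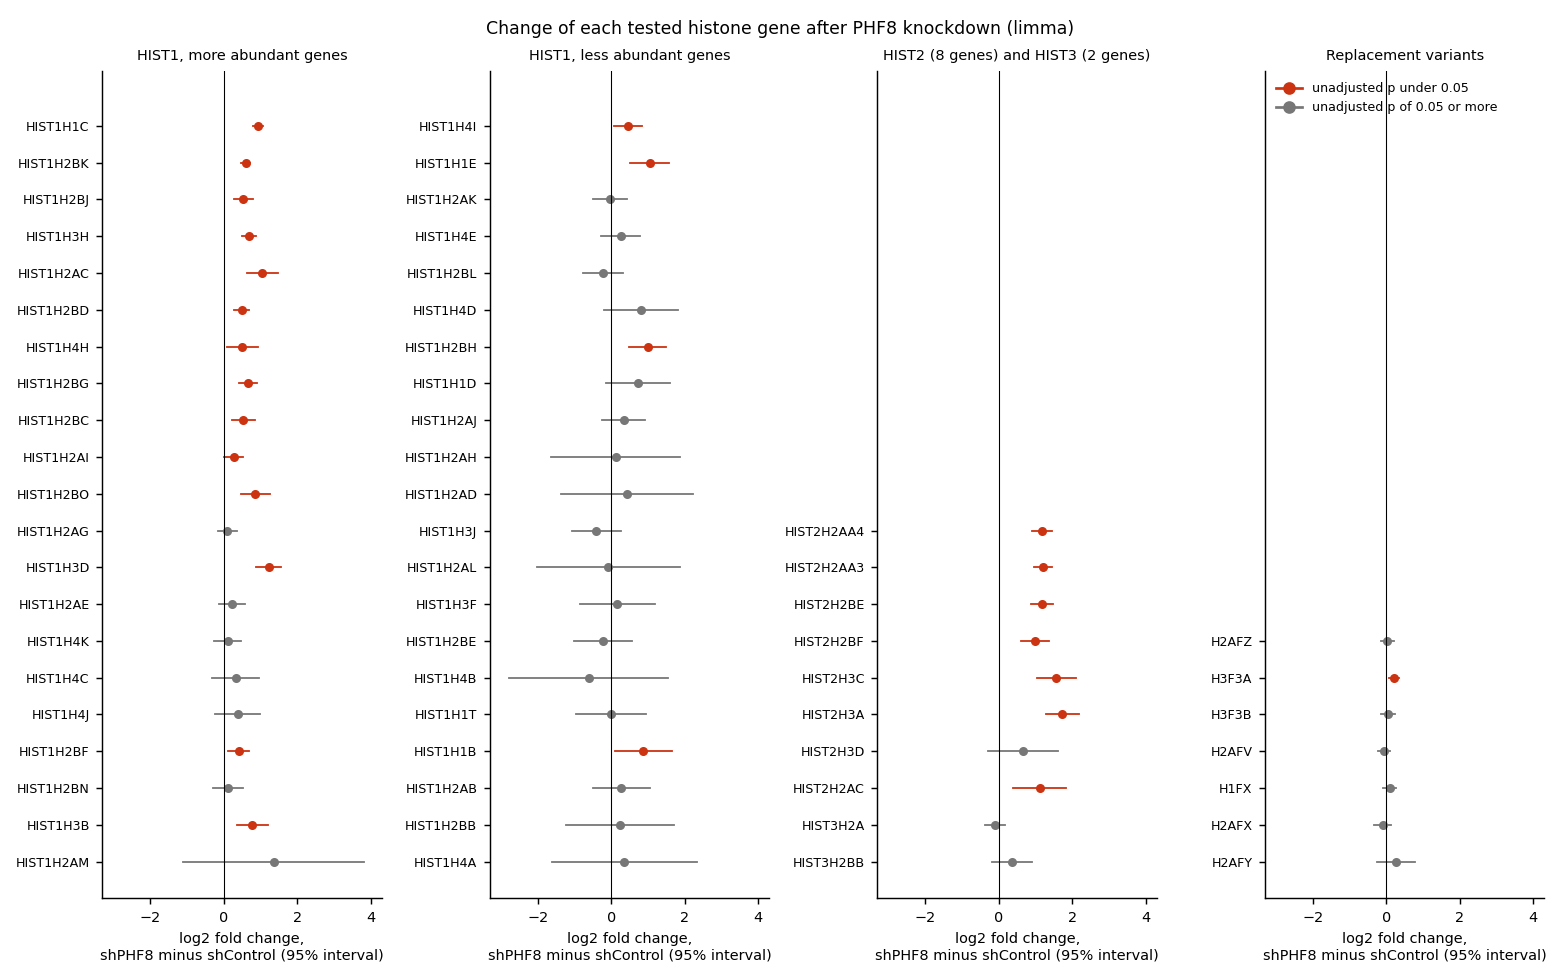
Log2 fold change of each tested histone gene, shPHF8 minus shControl, from limma, with 95% confidence intervals as bars. HIST1 genes are divided into the more and the less abundant, and red marks an unadjusted p under 0.05. All 8 HIST2 genes lie above 0 and 7 of them are red, while the 7 replacement variants lie between -0.09 and 0.26.

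Grouped by genomic cluster, HIST2 had a higher median than HIST1 and HIST3. HIST1 and HIST2 are separate loci, on chromosomes 6 and 1 in RefSeq. All 8 HIST2 genes had both shPHF8 libraries above both shControl libraries (against 26.0% of all genes). Of these, 7 had an unadjusted p under 0.05 (against 9.90% of all genes higher), and HIST2H3D did not. Their median log2 fold change was 1.18 with a range from 0.66 to 1.73. HIST2 TPM summed to 434 and 478 in shControl and to 1039.6 and 1049.6 in shPHF8, a ratio of 2.29. In HIST1, 18 of 42 tested genes had an unadjusted p under 0.05 (42.9%, against 9.90%), the median was 0.39 and the ratio of the sums was 1.64. In HIST3 neither of 2 genes did, and the sum was 216 and 222 TPM in shControl and 221 and 192 TPM in shPHF8. The difference between clusters was not tested, and HIST2 holds 2 pairs of near-identical copies that do not count as independent genes.

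HIST1 itself is split by a wide gap in RefSeq's gene order into a first block of 25 matched members and a second block of 18. In the first block 9 of 22 tested genes were higher at an unadjusted p under 0.05 with a median log2 fold change of 0.46, and in the second 7 of 18 with a median of 0.31. Over all genes 9.90% were higher at that threshold. Higher genes were therefore found on both sides of the gap. The blocks were drawn after the values were seen.

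The count of higher genes followed their abundance. Of the 14 clustered genes with a mean of 100 TPM or more, 13 had an unadjusted p under 0.05 and a higher level, against 13.7% of all genes at that level. Between 10 and 100 TPM it was 10 of 21, against 10.8% of all genes, and between 1 and 10 TPM it was 2 of 17, against 4.76%. The median standard error of the clustered genes was 0.09 in the highest range and 0.35 in the lowest. The median log2 fold change was 0.64, 0.45 and 0.28 from the highest range to the lowest. These ranges were chosen after the values were seen.

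**Figure D4:**
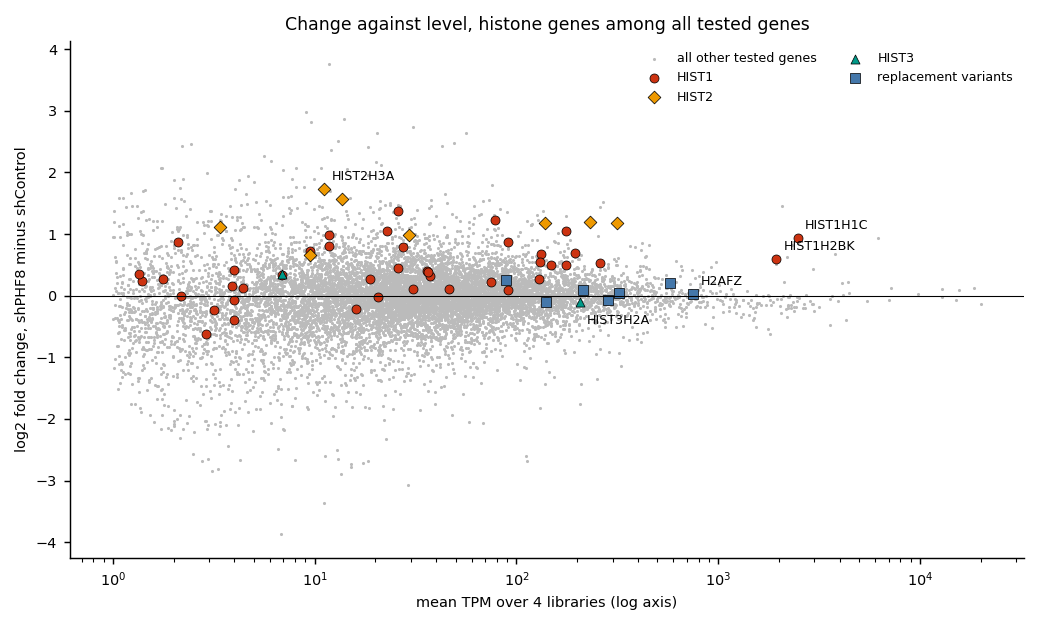
Log2 fold change (shPHF8 minus shControl) against mean TPM over the 4 libraries on a log axis, for all 10972 tested genes in grey and the histone genes in colour. Of the 14 clustered genes at 100 TPM or more, all but HIST3H2A lie above 0 and 13 have an unadjusted p under 0.05, whereas the replacement variants lie near 0.

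Replacement variants are deposited outside replication or mark particular chromatin. H2AFZ, which codes for H2A.Z, was the most abundant at 774 and 715 TPM in shControl and 755 and 762 TPM in shPHF8, a log2 fold change of 0.03 with a 95% interval from -0.14 to 0.20. H2AFV, which codes for the second H2A.Z protein, stood at 293 and 287 TPM against 272 and 280.3 TPM, a log2 fold change of -0.07 with an interval from -0.24 to 0.09. H2AFX, the variant phosphorylated at DNA breaks, stood at 138 and 151 TPM against 138 and 133 TPM. The intervals of these 3 genes lie below the log2 fold changes of the 4 most abundant clustered genes, but no difference between genes was tested.

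H3F3A stood at 535 and 529 TPM in shControl and at 604 and 626 TPM in shPHF8, a log2 fold change of 0.21 ± 0.05 with an unadjusted p of 0.0152 from limma (adjusted p 0.146). That p rose above 0.05 without either shPHF8 library and without the mean-variance trend. H3F3B, which codes for the same protein, stood at 315 and 317 TPM against 315 and 339 TPM and overlapped. H1FX stood at 211 and 205 TPM against 220.5 and 220.6 TPM, a log2 fold change of 0.09. H2AFY, which codes for macroH2A1, stood at 77.5 and 82.8 TPM against 114 and 80.8 TPM, with shPHF8 library 1 alone above the others.

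The table gives 87 transcripts for the 62 genes, and 52 genes have a single one. By identifier and version, 82 of the 87 matched GENCODE release 29, and these sequences were searched for the histone stem-loop, a run of 16 bases that the message folds into a stem of 6 base pairs and a loop of 4 bases. It was found in 23 of 57 matched clustered transcripts, from 22 genes, in 1 of 25 replacement transcripts (H2AFX), and in 0.0469% of all GENCODE protein-coding transcripts. Another 25 clustered transcripts are models of the coding sequence alone, which cannot show a stem-loop, HIST1H1C and HIST1H2BK among them, and 9 hold further sequence without the motif. The search used 1 pattern that allowed a choice of base at a few positions only, so forms that differ elsewhere were missed. It cannot show how much the element varies, and a transcript described as without a stem-loop is 1 without a match. The 3 most frequent forms found are printed, with the stem in capitals and the loop in lower case.
HIST1H2AC, HIST2H2AA4, HIST2H2BE, HIST2H3A, HIST3H2A and 10 others: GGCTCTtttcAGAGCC
HIST1H4E, HIST1H4H and HIST1H4J: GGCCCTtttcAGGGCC
HIST1H2BC and HIST1H2BD: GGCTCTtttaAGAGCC
HIST3H2A, whose level did not differ beyond its spread, carries the same 16 bases as HIST2H2BE and HIST2H3A.

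In 7 of the 23 clustered transcripts the stem-loop lies within 60 bases of the annotated end, and in 16 the model runs further past it. Genes with several transcripts allow a comparison between such ends, by estimates that the authors' software divided between overlapping models. For HIST1H2AC, transcript 002, which has no stem-loop, stood at 102 and 84.2 TPM in shControl and at 214 and 203 TPM in shPHF8. Transcript 201, with the stem-loop and 1114 bases after it, stood at 26.8 and 15.7 TPM against 34.2 and 22.2 TPM and overlapped. The separation of the groups in HIST1H2AC was thus in the transcript without the element.

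For HIST1H2BN, transcript 003, without a stem-loop, stood at 21.7 and 21.1 TPM in shControl and 22.2 and 23.6 TPM in shPHF8, a small difference. Transcript 001, with a stem-loop, overlapped at 8.42 and 7.76 against 6.37 and 11.8 TPM. The gene total overlapped as well, with a log2 fold change of 0.11 and an unadjusted p of 0.507 from limma. In HIST1H2BC the form with the stem-loop was rare, at 0.922 and 0.430 against 1.35 and 1.73 TPM, and the form without it stood at 115 and 97.5 against 152 and 156 TPM, both higher in shPHF8. HIST1H2BD and HIST1H4H did not show the contrast seen in HIST1H2AC either. For HIST1H2BD, transcript 001 without a stem-loop stood at 124 and 123 TPM in shControl and 168 and 165 TPM in shPHF8. Transcript 002, which ends 39 bases after one, stood at 16.9 and 26.4 TPM against 42.6 and 34.3 TPM. Both forms of HIST1H4H carry the stem-loop, and the form that ends 18 bases after it stood at 101 and 82.2 TPM against 123 and 136 TPM. The form that ends 630 bases after it stood at 37.3 and 24.2 TPM against 44.3 and 43.7 TPM. Short and long ends alike were higher in both shPHF8 libraries.

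Among the replacement variants, transcripts of the same gene stood on different sides of the control. H2AFY-002 stood at 8.90 and 4.33 TPM in shControl and 22.1 and 29.8 TPM in shPHF8. H2AFY-004 stood at 54.0 and 60.9 TPM against 22.2 and 41.9 TPM. H2AFY-005 was listed at 0 and 5.44 TPM in shControl and at 66.2 and 0 TPM in shPHF8, and the high gene total of shPHF8 library 1 lies in this transcript. In H2AFV, transcript 001 stood at 132 and 127 TPM against 141 and 144 TPM and transcript 002 at 111 and 105 TPM against 88.3 and 91.7 TPM, while the gene total hardly differed. In H3F3A, transcripts 002 and 003 were higher in both shPHF8 libraries and the main transcript 001 overlapped. No transcript was tested.

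**Figure D5:**
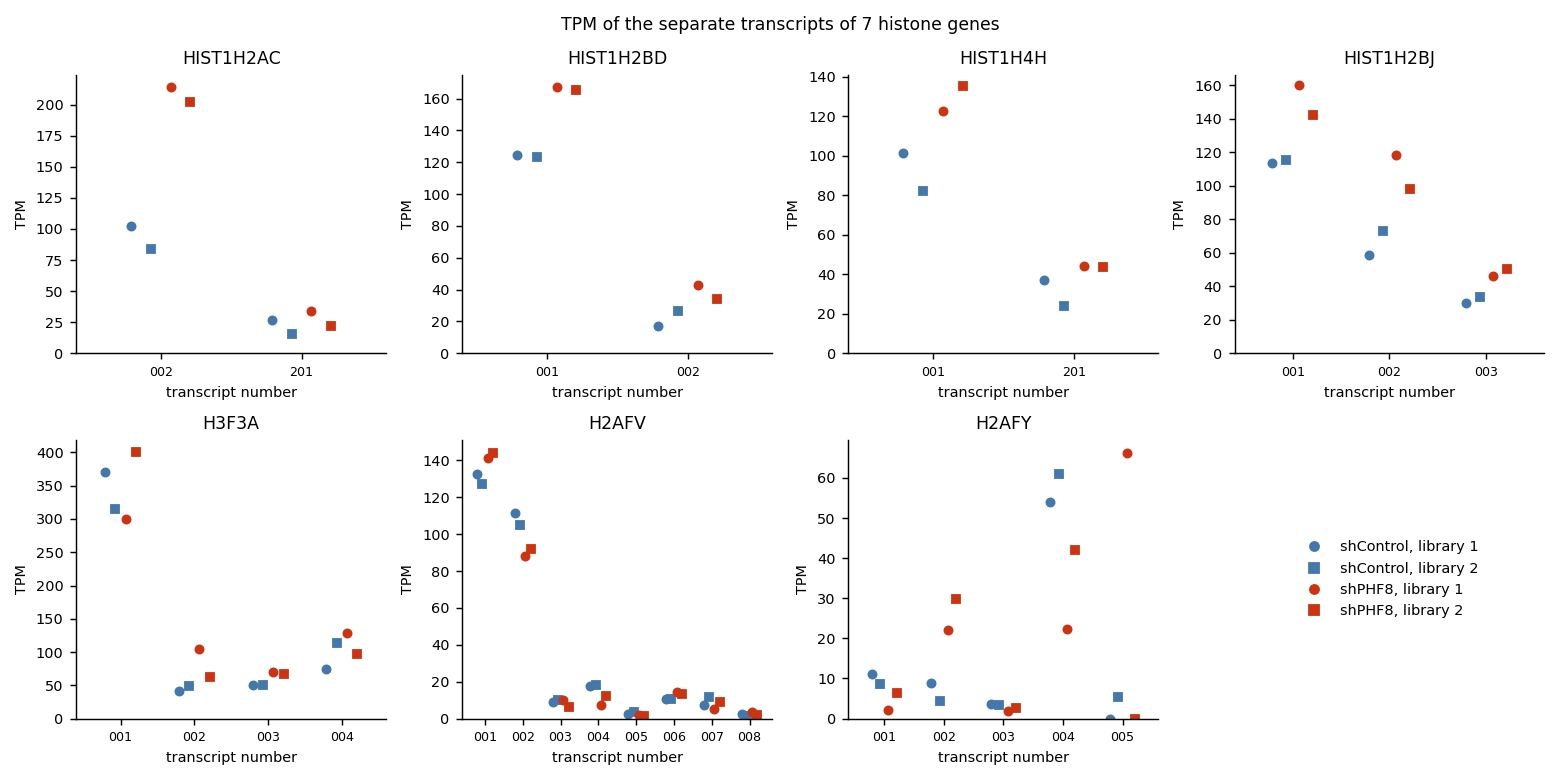
TPM of the separate transcripts of 7 histone genes in each library, with shControl in blue, shPHF8 in red, circles for library 1 and squares for library 2. HIST1H2AC-002 stands at 102 and 84.2 TPM against 214 and 203 TPM while HIST1H2AC-201 overlaps, and H2AFY-002 and H2AFY-004 lie apart in opposite directions.

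Promoter sequences were compared because members of 1 class share upstream elements while their changes differed. RefSeq windows from 250 bases before to 50 bases after the start (GRCh38.p14) were found for 56 of the 62 members. They were searched on both strands for the TATA motif TATAAA, for CCAAT, and for the octamer ATTTGCAT, the element bound by the POU factor OCT1 in H2B promoters. On the opposite strand CCAAT reads ATTGG and TATAAA reads TTTATA, and none of the 3 motifs contains another. The stretches printed are the last 150 bases before the start, with motifs on either strand in capitals, for the dominant H1 and H2B genes, a HIST2 gene with a high fold change, an H2B gene without one, and the most abundant H3 and H4 genes.
HIST1H1C, chr6:26056471-26056620, minus strand: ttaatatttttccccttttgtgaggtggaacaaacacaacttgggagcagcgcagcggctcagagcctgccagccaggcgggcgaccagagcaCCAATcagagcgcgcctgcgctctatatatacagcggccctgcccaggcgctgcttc
HIST1H2BK, chr6:27146856-27147005, minus strand: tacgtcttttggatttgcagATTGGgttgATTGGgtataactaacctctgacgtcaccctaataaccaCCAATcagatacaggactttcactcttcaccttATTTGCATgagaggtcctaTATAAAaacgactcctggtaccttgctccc
HIST2H2BE, chr1:149886683-149886832, minus strand: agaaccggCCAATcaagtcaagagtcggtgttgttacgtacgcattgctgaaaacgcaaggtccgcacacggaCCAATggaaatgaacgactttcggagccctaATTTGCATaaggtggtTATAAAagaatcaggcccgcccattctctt
HIST1H2BL, chr6:27807930-27808079, minus strand: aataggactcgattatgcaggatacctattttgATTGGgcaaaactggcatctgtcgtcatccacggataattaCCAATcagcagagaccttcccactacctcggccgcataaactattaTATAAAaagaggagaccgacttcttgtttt
HIST1H3H, chr6:27809901-27810050, plus strand: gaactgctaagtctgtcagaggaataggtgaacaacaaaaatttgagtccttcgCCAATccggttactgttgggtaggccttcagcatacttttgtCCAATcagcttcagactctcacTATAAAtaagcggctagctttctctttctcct
HIST1H4H, chr6:26285535-26285684, minus strand: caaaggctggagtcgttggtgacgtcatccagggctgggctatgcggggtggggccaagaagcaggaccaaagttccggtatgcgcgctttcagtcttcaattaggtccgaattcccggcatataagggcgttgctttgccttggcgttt

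The 3 motifs were frequent in the clustered genes. Of 49 clustered genes with a window, 71.4% held TATAAA, 87.8% CCAAT and 42.9% the octamer, against 14.0%, 39.7% and 2.19% of 27305 RefSeq genes. The octamer was found in 10 of 14 H2B and 10 of 15 H2A genes, in 1 of 8 H3 genes, and in no H1 or H4 window, and CCAAT was in only 1 of 7 H4 windows. Windows of head-to-head H2A and H2B genes both cover the stretch between the 2 starts, so 1 motif can count for both genes. In each of the 8 such pairs described below, the octamer was in both windows or in neither. The H2A and H2B counts are therefore not independent. Among tested H2B genes, 7 of 9 with the octamer had an unadjusted p under 0.05, with a median log2 fold change of 0.60, and so had 1 of 4 without it, with a median of 0.23. HIST1H2BK and HIST2H2BE, printed above, are in the first group and HIST1H2BL in the other. H2A genes did not show this order: 2 of 9 with the octamer and 3 of 5 without it had an unadjusted p under 0.05, with medians of 0.34 and 0.27. Over all genes, 9.90% were higher at that threshold. Without the octamer, HIST1H2BD, which was below 0.05, averaged 175 TPM, and HIST1H2BN, HIST1H2BL and HIST3H2BB averaged 30.8 TPM or less. HIST2H2BF and HIST1H2BH, with the octamer, were below 0.05 at 29.3 and 11.7 TPM. The part of level was not tested. HIST1H2BG and HIST1H2BF, also below 0.05, had no window and are in neither group. A match is a description and not a bound site, and the grouping by octamer was made after the values were seen.

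Many H2A and H2B genes lie head to head and share the sequence between their starts, and 8 such pairs with starts less than 500 bases apart were found, at distances of 194 to 248 bases. HIST2H2BE and HIST2H2AC were both higher, by 1.18 and 1.11 on the log2 scale, as were HIST1H2BC and HIST1H2AC, by 0.54 and 1.05. HIST1H2BJ and HIST1H2AG were unequal, at 0.54 and 0.10. HIST1H2AK and HIST1H2BN were both close to 0, at -0.03 and 0.11. In HIST1H2BL and HIST1H2AI the values were -0.22 and 0.27, and in HIST3H2A and HIST3H2BB -0.10 and 0.36. The remaining pairs were HIST1H2AM with HIST1H2BO, at 1.37 and 0.86, and HIST1H2AA with HIST1H2BA, which were not tested. Genes of 1 pair thus stood near each other in some cases and apart in others.

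Genes that act on histone supply were described from lists of general knowledge. Of 25 tested genes for stem-loop processing and binding, 8 lay apart upward (32.0%, against 26.0% of all genes) and 6 apart downward (against 29.3%). At an unadjusted p under 0.05, 0 were higher (against 9.90% of all genes). Lower were 2 (against 12.1%), and the median log2 fold change was 0.01. The 2 were SNRPD3, from 165 and 162 TPM to 135 and 127 TPM, and SNRPE, from 483 and 511 TPM to 430.0 and 407 TPM, both core proteins of spliceosomal particles and of the U7 particle that cuts histone messages. SNRPD3 did not stay below 0.05 without shPHF8 library 2, nor SNRPE without shControl library 2, shPHF8 library 2 or the trend. FIP1L1, a polyadenylation factor, stood at 75.5 and 65.8 TPM against 82.6 and 86.6 TPM. SLBP, the stem-loop binding protein itself, overlapped at 152 and 198 TPM against 152 and 223 TPM, and was looked up after the values were seen.

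Of 23 tested genes for histone gene transcription, 11 lay apart upward (47.8%, against 26.0% of all genes) and 6 apart downward (against 29.3%). At an unadjusted p under 0.05, 3 were higher (E2F1, NELFE and YY1), 13.0% against 9.90% of all genes. The 3 lower were LDHA, CDK2 and NCBP2, against 12.1% of all genes, and the median was 0.08. On leaving out any single library the counts were 2 higher and 1 to 2 lower, with 1 lower without shControl library 1, and neither E2F1 nor NELFE stayed below 0.05 without shPHF8 library 2. E2F1, an activator of S-phase genes, stood at 42.6 and 42.6 TPM in shControl and at 56.6 and 58.6 TPM in shPHF8. NELFE, a subunit of a pausing factor that acts in histone message ends, stood at 144 and 137 TPM against 175 and 194 TPM. LDHA, a glycolytic enzyme reported in the OCT1 coactivator complex, stood at 583 and 482 TPM against 347 and 353 TPM. NPAT, the coactivator of clustered histone genes, was looked up after the values were seen and stood at 27.7 and 29.5 TPM against 30.0 and 36.7 TPM, apart with an unadjusted p of 0.23 from limma.

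Of 33 tested histone chaperones and assembly factors, 11 lay apart upward (33.3%, against 26.0% of all genes) and 5 apart downward (against 29.3%). At an unadjusted p under 0.05, 3 were higher (CABIN1, CHAF1A and DEK). That is 9.09%, near the 9.90% of all genes. IPO4 was the 1 lower, against 12.1% of all genes, and the median was 0.04. CABIN1, of the complex that deposits H3.3, stood at 24.5 and 25.2 TPM against 39.9 and 45.2 TPM, a log2 fold change of 0.75 ± 0.12. CHAF1A, the large subunit of the factor that deposits new H3 and H4 behind replication forks, stood at 102 and 106 TPM against 126 and 137 TPM. DEK, an H3.3 chaperone, stood at 380 and 346 TPM against 424 and 425 TPM, and its unadjusted p from limma rose above 0.05 without the mean-variance trend, with quantile normalization, with the replicate block, and without shControl library 2 or either shPHF8 library, up to 0.117. That of CHAF1A was 0.0592 without shControl library 1 and 0.0971 without shPHF8 library 2. Without shControl library 1 the list counted 5 higher. The chaperones as a group stood close to the median of all genes.

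Of 45 S-phase genes, 14 were higher at an unadjusted p under 0.05 (31.1%, against 9.90% of all genes) and 0 were lower (against 12.1%). Apart upward lay 32 (71.1%, against 26.0%) and downward 2 (against 29.3%), and the median log2 fold change was 0.24. MCM6, a subunit of the replicative helicase, stood at 115 and 90.6 TPM in shControl and at 245 and 256 TPM in shPHF8, a log2 fold change of 1.28 ± 0.14. MCM7, of the same helicase, stood at 256 and 267 TPM against 360 and 382 TPM. The list counted 7 higher without shPHF8 library 2. The S-phase genes and the clustered histone genes thus had medians of the same sign, and their part in the histone result was not tested. All 5 clustered genes listed as also making polyadenylated transcripts (HIST1H1C, HIST1H2AC, HIST1H2BD, HIST1H2BK and HIST2H2BE) had an unadjusted p under 0.05, with a median of 0.93, and all 5 are abundant genes counted above.

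Markers of cell state also differed between the groups. The 20 K562 and erythroid markers summed to 12190 and 13170 TPM in shControl and to 19130 and 18310 TPM in shPHF8, with 12 of 20 higher at an unadjusted p under 0.05. The globin genes HBG1, HBE1, HBG2 and HBA1 had the highest TPM of this list and weigh most in its sum. Not every marker was higher: 14 lay apart upward and 3 apart downward. Those 3 were GATA1, GYPB and GYPC, with log2 fold changes of -0.14, -0.27 and -0.20, and 0 markers were lower at an unadjusted p under 0.05. Of 18 granulocyte and monocyte markers, 7 were in the table, with sums of 207 and 238 TPM against 123 and 114 TPM. All 7 were lower at an unadjusted p under 0.05 (against 12.1% of all genes). Of 12 lymphocyte markers 3 were in the table, at sums of 240 and 204 TPM against 107 and 100.4 TPM, most of it PTPRC, which most blood cells express. Of 11 megakaryocyte markers 6 were in the table, at 146 and 155 TPM against 180.2 and 162 TPM, with PPBP at 0 in 3 of the 4 libraries. The higher sum was not shared by the list, whose 5 tested genes had a median of -0.02: TUBB1 stood at 11.0 and 13.2 against 35.4 and 34.9 TPM, and PLEK at 2.75 and 5.04 against 0 and 0.205 TPM. Of 11 stromal and endothelial markers 2 were in the table, at 9.88 and 13.0 TPM against 3.42 and 2.52 TPM. The lower sum lay in COL1A2, while COL1A1 overlapped at 0.505 and 1.425 against 1.628 and 0.866 TPM. The part of these shifts in the histone result was not tested.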

How the data were processed

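RNA-seq of 4 K562 libraries, 2 shControl and 2 shPHF8, was deposited as 1 table of 32551 transcripts. Per the file headers, the authors give TPM per transcript and library, and each TPM column sums to 1000000. A signal column per library without a stated unit, which the authors also deposited, is an exact multiple of the TPM column and was not used. The submitters' processing notes name HISAT2 2.0.4, StringTie 1.2.3 and hg19; the sources used here do not give the annotation, strand setting or filters. Depth is unknown because TPM keeps none, so no counting error is given.

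TPM were summed per gene name. Groups follow the sample labels. Genes that averaged 1 TPM or more were tested on log2(TPM + 1) with limma 3.58.1 (R 4.3.3; mean-variance trend, two-sided, Benjamini-Hochberg over 10972 genes), a procedure tested on simulated data. The 241 genes below the filter were left out. Adjusted and unadjusted p-values in the text come from this fit unless another setting is named. Named were PHF8, the 4 most abundant tested members and the 3 with the smallest p in each direction of each histone class, and the 3 with the smallest p of each pathway list; 1 of these is not reported here. Every other gene in the text was picked with its values in view. The members and lists were chosen with earlier results of these data known. Alternatives were the pseudocount, filter, scaling, trend, replicate block and leaving out each library. Sequences come from GENCODE release 29 and RefSeq windows on GRCh38.p14, while the table was made on hg19, so they were joined by identifier or symbol and no coordinates were converted. Python 3.11.15, pandas 2.3.3 and matplotlib 3.10.9 made the tables and plots.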

Additional observations from a re-analysis of the deposited data

How the results depend on the processing

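With 2 libraries a group, no adjusted p passed 0.05, and of the settings tried quantile normalization alone changed this, with 17 genes called higher and 20 lower over all genes. Each setting gave a positive median for the clustered genes and for HIST1 and HIST2. With a minimum mean of 5 TPM, 0 clustered genes lay apart downward and the medians were 0.60 for clustered, 1.00 for H3 and 0.52 for HIST1 genes, and 0 chaperones were lower. The HIST1 median was 0.44 with a pseudocount of 0.1 and 0.47 with quantile normalization, which gave 0.43 for H2A and 0 lower chaperones. Replacement variants apart downward numbered 1 with median-of-ratios scaling, with TPM rescaled without histone genes and with quantile normalization, and 0 were higher without the trend, where 1 gene of the 3' end list was lower. The median of that list was 0.018 with rescaled TPM, 0.029 with median-of-ratios scaling, 0.016 with the pseudocount and 0.045 with quantile normalization, and that of the chaperones 0.058 with median-of-ratios scaling. HIST1H1T, at -0.0047 with the settings of the text, was 0.0062 with median-of-ratios scaling, 0.0038 with the pseudocount and 0.20 with quantile normalization, and HIST1H2AL was 0.062 with the latter; the causes were not tested.

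Leaving out each library in turn, counts at an unadjusted p under 0.05 ran from 592 to 1118 higher over all genes (646 without shPHF8 library 1 and 592 without library 2), from 19 to 25 higher and 0 to 1 lower for clustered genes, from 3 to 6 for H2A, 0 to 2 for H4 and 0 to 1 for replacement variants. Clustered genes apart downward ran from 3 to 7, since 3 libraries separate more easily. Medians ran from 0.43 to 0.56 for clustered genes, 0.19 to 0.51 for H2A, 0.47 to 0.56 for H2B, 0.75 to 0.88 for H3, 0.10 to 0.55 for H4, 0.38 to 0.50 for HIST1, 1.09 to 1.29 for HIST2 and 0.022 to 0.086 for replacement variants. The log2 ratio of sums ran from 0.29 to 0.50 for H4, 1.13 to 1.27 for HIST2 and -0.19 to 0.014 for HIST3. For S-phase genes the median ran from 0.15 to 0.29, with 7 to 18 higher and 0 to 1 lower. For the 3' end list it ran from -0.051 (without shControl library 2) to 0.029, with 0 to 1 higher and 1 to 3 lower. For chaperones it ran from 0.0026 to 0.14, with 2 to 5 higher and 0 to 1 lower, and for transcription genes from 0.042 to 0.16, with 2 higher and 1 to 2 lower. Some named genes changed sign, with ranges of -0.30 to 0.29 for HIST1H1T (0.18 without shPHF8 library 1), -0.19 to 0.13 for HIST1H2AK (0.025 without shControl library 1), -0.44 to 0.0036 for HIST1H2BL, -0.029 to 0.24 for HIST1H4K, -1.60 to 0.37 for HIST1H4B, -0.028 to 0.086 for H2AFZ and -0.0052 to 0.10 for H3F3B. HIST1H2AL moved far in both directions, to 0.90 without shPHF8 library 1 and to -1.05 without shPHF8 library 2. Other genes kept their sign over wide ranges. These were 0.33 to 1.295 for HIST1H4D, 0.089 to 0.67 for HIST1H4J, 0.040 to 0.61 for HIST1H4C, 0.37 to 1.095 for HIST1H1D and 0.012 to 0.51 for H2AFY.

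Replicate numbers are shared between groups, but deviations of same-numbered libraries correlated at -0.029, which does not pair them and leaves what the numbers mark unsettled. With the replicate block, 23 clustered genes were higher in place of 25, 888 genes in place of 1086 were higher over all genes, and among named genes HIST1H1B and DEK lost their unadjusted p under 0.05.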
